A study of Mus musculus with 6 samples.

Results

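Chemokine receptors are 8 genes here, Ccr1, Ccr2, Ccr3, Ccr7, Ccrl2, Cxcr2, Cxcr3 and Cxcr4, taken as a list of gene names. They were found as the non-control probes whose gene name in the scanner files is one of these, which gave 10 probes of the 56605 on the array. All 8 genes were measured, and all 8 were among the 19501 genes tested. Bone marrow monocytes of C57BL/6J mice aged 6 to 8 weeks, purified with magnetic beads, were kept in culture with M-CSF at 20 ng/mL during 60 h. M-CSF is the factor that turns monocytes into macrophages and was present in every culture. Of the samples, 3 received M-CSF alone (control) and 3 received in addition 100 U of mouse IFN-beta, one of the type I interferons. Each sample was measured on 1 array of a 1-colour Agilent design. The labels do not say whether replicates came from separate animals or cultures, so p-values measure only the spread between these samples, which may be technical.

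Chemokine receptors are G protein-coupled receptors with 7 membrane-spanning helices that steer leukocytes along gradients of small secreted proteins. The family is named after the ligand class: CCR members bind CC chemokines and CXCR members bind CXC chemokines. On monocytes, Ccr2 is known for the exit of these cells from the bone marrow and Cxcr4 for their retention there. Ccr7 guides mature dendritic cells and lymphocytes to lymph nodes, Ccr3 is typical of eosinophils and basophils, and Cxcr2 of neutrophils. Ccrl2 is an atypical receptor that binds the chemoattractant chemerin without the usual G protein signal.

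The question is how these receptor transcripts differ when monocytes mature with IFN-beta present. With it, 3 of the 8 receptors rose and 0 fell: Ccr7 by 8.24-fold, Ccr3 by 5.64-fold and Cxcr2 by 3.81-fold (limma with Benjamini-Hochberg adjustment over all genes tested, adjusted p = 1.98e-04, 6.58e-04 and 0.00746). Over all genes tested 11.8% were called higher, 8.03% lower and 19.8% in either direction. Ccr1, Ccr2 and Cxcr3 had lower means with IFN-beta and Cxcr4 and Ccrl2 slightly higher ones, and none of these 5 passed the threshold. The median log2 fold change of the 8 was 0.33, against 0.10 over all genes. For 6 of the 8, 3 higher and 3 lower, no treated array lay within the range of the controls, against 40.1% of all genes tested. The data are from whole cultures, in which a change in the number of cells of a type and a change in RNA per cell cannot be told apart.

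The control arrays differed among themselves. Controls 1 and 2 correlated at r = 0.994 over genes and control 3 with them at 0.957 and 0.956, genes not being independent replicates. Control 3 correlated more with IFN-beta 1, 2 and 3 (r = 0.966, 0.963 and 0.965) than with the other controls. The summed signal of 17 fibroblast and stromal markers, in multiples of the array's 75th percentile, was 558 and 645 on controls 1 and 2. It was 1.33 on control 3, and the treated arrays lay from 3.08 to 3.56. Control 3 was the highest control for 6 of the 8 receptors, as for 73.9% of all genes. Values against control 3 alone and against controls 1 and 2 are therefore given for each of the 8 receptors. The 75th percentile of the signal was 550, 528 and 305 on the controls and from 236 to 244 with IFN-beta, and between 49.0% and 63.9% of probes lay well above background. All 15 monocyte and macrophage markers lay well above background on every array. Their summed signal was 819 to 1194 on the controls and 1703 to 1750 with IFN-beta. Of the 15, 4 were called higher and 3 lower, 46.7% against 19.8% of all genes, with a median log2 fold change of 0.28 (-0.16 against control 3). Ly6c2 (2.89), Ly6c1 (2.69) and Fcgr1 (2.20) had the lowest p among those higher. The 3 lower were Cd14 (-1.81), Mertk (-1.76) and Itgam (-0.72). The 3 controls and IFN-beta 1 shared slide 1, and IFN-beta 2 and 3 lay on slide 2, so a value within slide 1 rests on 1 treated array.

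Of the 8 receptors, 7 have a promoter in the RefSeq table (build GRCm38.p6; Ccr7 was not matched). The 250 bases before each start were searched on both strands for the interferon-stimulated response element GAAANNGAAA and the STAT site TTCNNNGAA, which 2.98% and 7.02% of the 32851 promoters in the table hold. None of the 7 receptors held either. Further motifs were chosen after that: the composite site GGAANNGAAA of ETS and IRF factors (2.3% of promoters), the C/EBP site TTGCNNAA (9.56%) and the core GAGGAA of PU.1, the master regulator of myeloid cells (23.3%). The PU.1 core was present in 4 of the 7, Ccr1, Ccr3, Cxcr2 and Cxcr3, and its last 4 bases can also begin the composite site, which, like the C/EBP site, was in 0. Absence of these letters from a window of this size says nothing about the factors. The 2 windows shown are those of the receptors in the table that rose, with the PU.1 core in capitals. It begins 181 bases before the start of Ccr3 and 81 bases before that of Cxcr2, in Cxcr2 on the opposite strand. The Ccr3 window lies at chr9:124021721-124021970 and the Cxcr2 window at chr1:74153744-74153993, both on the plus strand.
Ccr3: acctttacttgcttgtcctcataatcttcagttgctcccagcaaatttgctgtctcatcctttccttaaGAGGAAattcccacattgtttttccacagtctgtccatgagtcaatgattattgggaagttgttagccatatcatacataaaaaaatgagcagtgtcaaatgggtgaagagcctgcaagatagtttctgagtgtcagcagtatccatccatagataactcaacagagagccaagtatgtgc
Cxcr2: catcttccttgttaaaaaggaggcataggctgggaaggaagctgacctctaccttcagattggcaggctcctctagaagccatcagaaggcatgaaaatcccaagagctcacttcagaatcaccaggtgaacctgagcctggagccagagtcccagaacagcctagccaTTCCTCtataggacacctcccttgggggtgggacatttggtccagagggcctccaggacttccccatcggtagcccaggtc

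All levels that follow are log2 of the processed signal after division by the 75th percentile of its array, so 0 is a probe as bright as that percentile. They are compared between arrays for 1 probe and never between probes. Differences are log2 fold changes, IFN-beta minus control, with the standard error of the fit over 3 arrays per group.

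**Figure D1:**
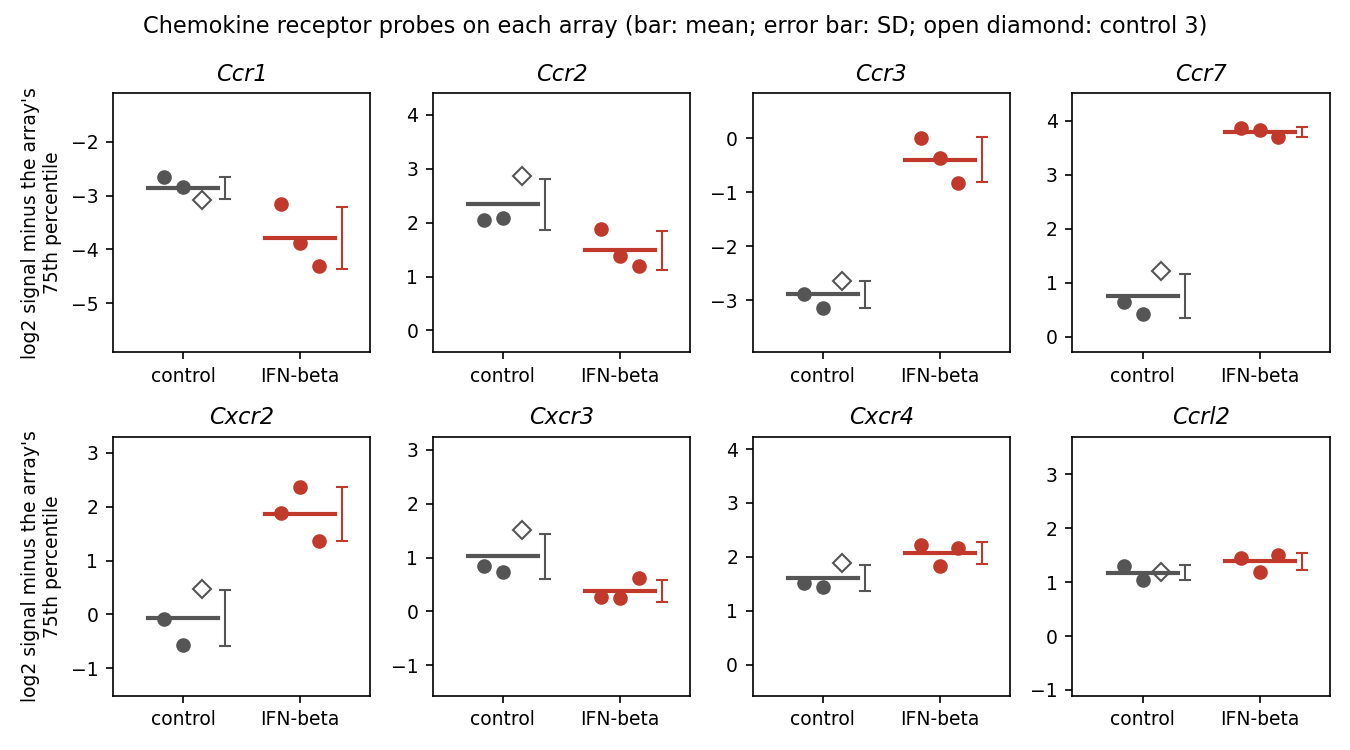
Levels of the 8 receptors on each array (log2, relative to the 75th percentile of the array), 3 control arrays in grey and 3 IFN-beta arrays in red, with the mean (bar) and SD (error bar) per group; each panel spans the same number of log2 units. Ccr7, Ccr3 and Cxcr2 lie higher on every IFN-beta array than on any control, and control 3 (open diamond) is the highest control in 6 panels.

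Ccr7, the homing receptor for the lymph node chemokines Ccl19 and Ccl21, showed the largest rise. Its brighter probe (chromosome 11, 99005551 to 99005610, mm9, minus strand) stood at 0.64, 0.41 and 1.21 on controls 1, 2 and 3 and at 3.86, 3.82 and 3.70 on IFN-beta 1, 2 and 3. Every treated array lay above every control, and the treated arrays were close to each other, with a mean of 3.79 ± 0.08 (SD, n = 3) against 0.75 ± 0.41 (SD, n = 3). The log2 fold change was 3.04 ± 0.23 (limma adjusted p = 1.98e-04), with 2.58 ± 0.20 against control 3 alone (adjusted p = 0.00189), 3.27 against controls 1 and 2, and 3.11 within slide 1 (adjusted p = 0.0358). A second probe, of which the file places 26 of its 60 bases at 99005513 to 99005538, gave -2.41, -2.91 and -2.47 on the controls and 0.68, 0.61 and 0.40 with IFN-beta. That probe is dimmer, and the groups were again apart, with a log2 fold change of 3.16 ± 0.19 in a fit of all tested probes (adjusted p = 7.82e-05).

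Markers of dendritic and B cells, which are known to carry Ccr7, did not share a direction. T cells are known for it too, and the T and NK cell markers are given below with Cxcr3. The summed signal of the 13 dendritic cell markers was 41.8 to 57.7 on the controls and 27.3 to 36.9 with IFN-beta. Siglech, a plasmacytoid cell marker that was not called (-0.62, adjusted p = 0.0836), made up 78.7% to 87.3% of that sum, and without it the sums were 6.80 to 8.90 and 4.62 to 5.90. Of these 13, all tested, 1 was called higher and 3 lower: Spib, a transcription factor of plasmacytoid cells, at 0.88, and Cd209a, Zbtb46 and Clec9a, which fell at least 37.9-fold, 2.55-fold and 2.38-fold, since none of the 3 lay well above background on any treated array. Such a bound sets the mean of the controls against the higher of the gene's own signal and the dimmest signal well above background on each treated array. Cd209a is a relative of the lectin gene DC-SIGN, Zbtb46 encodes a transcription factor of conventional dendritic cells and Clec9a a receptor for dead cells. With control 3 as the sole control, Spib (0.54, adjusted p = 0.259) and Clec9a (adjusted p = 0.0592) were not called. Instead Cacnb3 (3.25, adjusted p = 0.00128) and Fscn1 (2.44, adjusted p = 0.00271), the gene of fascin in mature dendritic cells, were called higher and Flt3 (-1.48, adjusted p = 0.0417) lower, genes named after their values were seen. Against controls 1 and 2, Cacnb3 was at -0.66 and Fscn1 at 0.87. The 11 B cell markers summed to 4.13 to 4.57 on the controls and 3.41 to 3.96 with IFN-beta. Without Ebf1, which lay above background on controls 1 and 2 only, these sums were 3.08 to 4.55 and 3.40 to 3.94 and overlapped. Cd79a and Blk lay above background on no array, and Ms4a1, the CD20 gene, was the 1 of 6 tested that rose, by 1.26 ± 0.33 (above background on 2 of 3 controls). The part of these cells in the Ccr7 result was not tested.

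Ccr3, the receptor for eotaxins, rose from a low level. Its probe (chromosome 9, 123945225 to 123945284, mm9, plus strand) stood at -2.88, -3.15 and -2.65 on controls 1, 2 and 3 and at 0.00, -0.37 and -0.83 on IFN-beta 1, 2 and 3. The groups were apart by more than the spread of either, with means of -2.89 ± 0.25 (SD, n = 3) and -0.40 ± 0.42 (SD, n = 3). The log2 fold change was 2.49 ± 0.25 (limma adjusted p = 6.58e-04), with 2.25 ± 0.34 against control 3 alone (adjusted p = 0.0141), 2.62 against controls 1 and 2, and 2.90 within slide 1 (adjusted p = 0.0286). With normexp background correction and quantile normalization it was 1.65 and still called.

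Most, but not all, marker genes of the cells known for Ccr3 moved with it. The summed signal of 13 eosinophil, basophil and mast cell markers was 11.2, 10.7 and 17.1 on controls 1, 2 and 3 and 97.8, 105 and 71.2 with IFN-beta. Of the 12 tested, 9 rose and 0 fell, with a median log2 fold change of 2.57, or 2.50 against control 3. The 3 with the lowest p were Mcpt8, a basophil protease gene, at 3.67 ± 0.26, Fcer1a, the IgE receptor chain, at 3.43 ± 0.28, and Cpa3, carboxypeptidase A3, at 3.36 ± 0.28. The eosinophil genes Prg2 and Siglecf were at 0.02 and -0.05 without a call, and Tpsb2 was at -0.54. Epx, another eosinophil gene, rose by 1.30 over all controls and was at 0.70 against control 3. On the array with the lowest Ccr3 among the treated, IFN-beta 3, the marker sum was also the lowest of the 3. IFN-beta 1 had the highest Ccr3 and IFN-beta 2 the highest sum. The neutrophil, dendritic, T and NK, B cell and fibroblast marker sums were lowest among the treated on IFN-beta 3 as well. The part of these cells in the Ccr3 result was not tested.

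Cxcr2, which binds the neutrophil chemoattractants Cxcl1, Cxcl2 and Cxcl5, rose with more spread in both groups. Its probe (chromosome 1, 74206886 to 74206945, mm9, plus strand) stood at -0.09, -0.57 and 0.47 on the controls and at 1.89, 2.36 and 1.36 on the IFN-beta arrays. The groups did not overlap, and their means were -0.06 ± 0.52 (SD, n = 3) and 1.87 ± 0.50 (SD, n = 3). The log2 fold change was 1.93 ± 0.34 (limma adjusted p = 0.00746). The call was lost against control 3 alone (1.40 ± 0.39, adjusted p = 0.0847), within slide 1 (1.95, adjusted p = 0.122) and with slide as a block (1.95, adjusted p = 0.0933). Against controls 1 and 2 the difference was 2.20.

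Most neutrophil marker genes also moved with IFN-beta. The summed signal of the 16 neutrophil markers was 640, 616 and 833 on controls 1, 2 and 3 and 1340, 1336 and 1099 with IFN-beta. All 16 were tested and lay well above background on every array; 11 rose and 0 fell, with a median of 1.40, or 0.99 against control 3. The lowest p belonged to Ly6g, the surface marker of mouse neutrophils (2.88 ± 0.16), Prtn3, proteinase 3 (2.87 ± 0.23), and Mpo, myeloperoxidase (2.80 ± 0.27). Retnlg, S100a9, S100a8, Csf3r and Mmp8 were at 0.68, 0.41, 0.40, 0.06 and -0.29 without a call. Of these, S100a9 gave the largest part of the sum on every array. As for Cxcr2, control 3 was the highest control and IFN-beta 3 the lowest treated array. This order was not particular to neutrophil genes. Control 3 was the highest control for 73.9% of all genes. The dendritic, T and NK, B cell, fibroblast and basophil marker sums were also lowest among the treated on IFN-beta 3. The part of these cells in the Cxcr2 result was not tested.

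**Figure D2:**
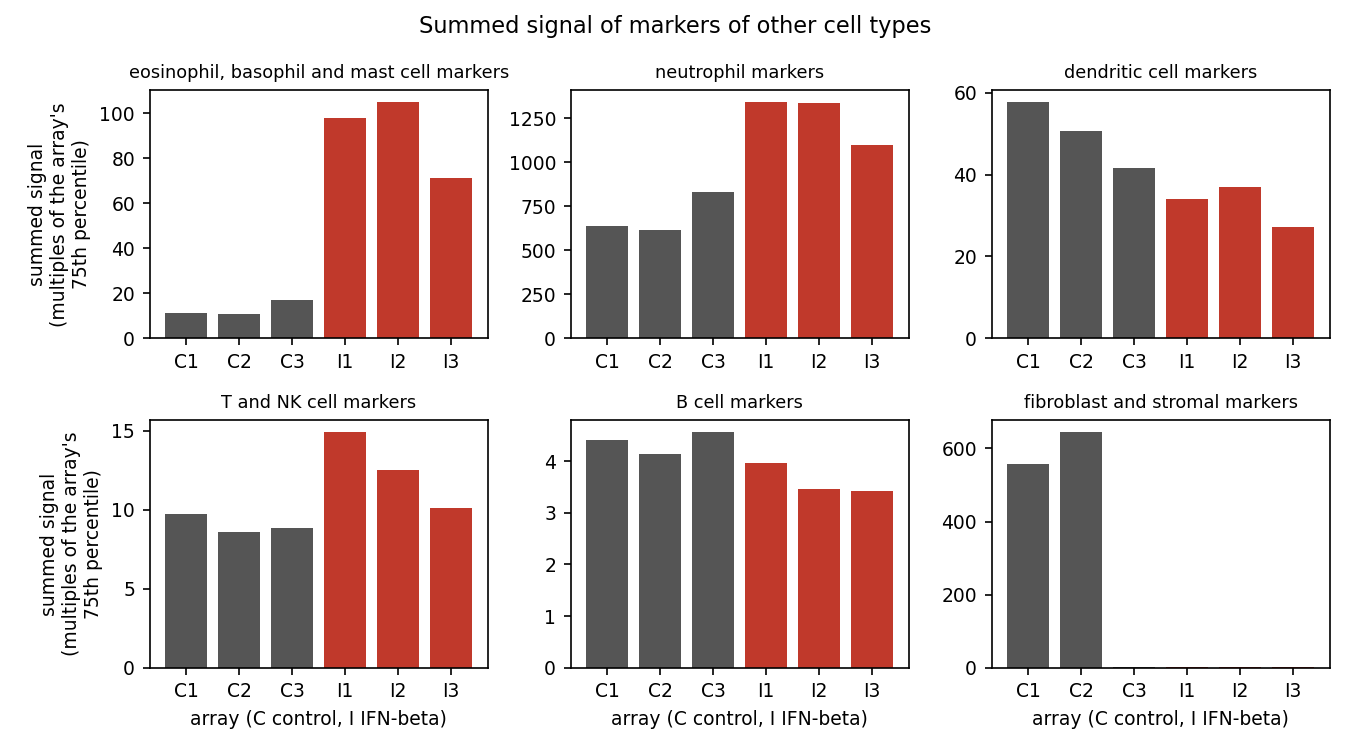
Summed signal of the marker genes of 6 groups of other cell types on each array, in multiples of the array's 75th percentile (bars; C1 to C3 control arrays in grey, I1 to I3 IFN-beta arrays in red). The eosinophil, basophil and mast cell sum runs from 10.7 to 17.1 on the controls and from 71.2 to 105 with IFN-beta, while the fibroblast sum is high on controls 1 and 2 only.

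Ccr1 and Ccr2, the receptors that bring monocytes to inflamed tissue, had lower means with IFN-beta that did not pass the threshold over all controls. Ccr2 binds Ccl2, Ccl7 and Ccl12, and its probe (chromosome 9, 124022948 to 124023007, plus strand) stood at 2.05, 2.09 and 2.88 on the controls and at 1.89, 1.37 and 1.19 with IFN-beta. Every treated array lay below every control, but IFN-beta 1 was close to controls 1 and 2. The difference was -0.85 ± 0.29 (95% interval, not adjusted for the number of genes, -1.52 to -0.19; limma adjusted p = 0.0733), -0.59 against controls 1 and 2 (adjusted p = 0.0729) and -0.45 within slide 1 (adjusted p = 0.626). Against control 3 alone Ccr2 was called lower, at -1.39 ± 0.31 (adjusted p = 0.0476). That call was lost with quantile normalization (-1.30, adjusted p = 0.0839) and without the filter on dim probes (adjusted p = 0.119).

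Ccr1, a receptor for Ccl3, Ccl5 and Ccl6, was a dim probe (chromosome 9, 123877790 to 123877849, minus strand), with a stop codon in each forward frame of its 60 bases. It stood at -2.66, -2.83 and -3.08 on the controls and at -3.16, -3.89 and -4.30 with IFN-beta, and on the last of these it was not well above background. The groups did not overlap, but IFN-beta 1 lay just below control 3. The difference was -0.92 ± 0.30 (interval -1.61 to -0.24; limma adjusted p = 0.0644), -0.70 against control 3 alone (adjusted p = 0.379) and -0.30 within slide 1 (adjusted p = 0.641). It was called without control 3 (-1.04, adjusted p = 0.0445) and without IFN-beta 1 (-1.23, adjusted p = 0.0196), and its sign turned with normexp background correction (0.11, adjusted p = 0.586).

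Cxcr3, the receptor of the interferon-inducible chemokines Cxcl9, Cxcl10 and Cxcl11 on T and NK cells, had a lower mean as well. Its probe (chromosome X, 98926920 to 98926979, minus strand) stood at 0.84, 0.74 and 1.50 on the controls and at 0.27, 0.25 and 0.62 with IFN-beta. The groups did not overlap, but IFN-beta 3 lay close below control 2. The difference was -0.64 ± 0.24 (interval -1.21 to -0.08; limma adjusted p = 0.101) and -0.40 against controls 1 and 2 (adjusted p = 0.0745). Against control 3 alone Cxcr3 was called lower, at -1.12 ± 0.24 (adjusted p = 0.0409), a call lost with quantile normalization (adjusted p = 0.0545), spike-in scaling (adjusted p = 0.0996) and no filter (adjusted p = 0.123). The 18 T and NK cell markers summed to 8.57 to 9.76 on the controls and 10.1 to 14.9 with IFN-beta. Cd247, which was not called (0.66, limma adjusted p = 0.102), gave the largest part of this sum on every array. The median log2 fold change of the tested markers was 0.35, or 0.46 against control 3, beside 0.10 and -0.10 over all genes. Of the 12 tested, 2 rose, Cd5 (1.57 ± 0.18) and Nkg7 (1.46 ± 0.16), and 2 fell, Klrb1c at least 1.40-fold and Prf1, the perforin gene, at -0.96 ± 0.21 (above background on 2 of 3 treated arrays; adjusted p = 0.168 against control 3). Ncr1 lay above background on no array. The part of these cells in the Cxcr3 values was not tested.

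Cxcr4, the receptor for the marrow retention factor Cxcl12, had 2 probes. The brighter (chromosome 1, 130485079 to 130485138, minus strand) contains the polyadenylation signal AATAAA. It stood at 1.52, 1.43 and 1.88 on the controls and at 2.21, 1.83 and 2.16 with IFN-beta, and IFN-beta 2 lay below control 3. The difference was 0.45 ± 0.20 (interval -0.00 to 0.91; limma adjusted p = 0.141), 0.18 against control 3 alone (adjusted p = 0.675) and 0.59 against controls 1 and 2, where it was called (adjusted p = 0.0235). The second probe (chromosome 1, 130486114 to 130486173, minus strand) has no such signal and reads through without a stop codon in 2 forward frames. Its sequence is shown because the 2 probes read different stretches of the transcript and gave differences of 0.45 and 0.88.
Cxcr4 second probe: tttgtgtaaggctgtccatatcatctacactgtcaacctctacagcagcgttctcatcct
That probe stood at -1.11, -1.34 and -0.47 on the controls and at -0.40, 0.21 and -0.07 with IFN-beta, so the groups were apart by a small margin, from control 3 to IFN-beta 1. Its difference was 0.88 ± 0.27, and in the fit of all tested probes it fell just short of the threshold (adjusted p = 0.0506).

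Ccrl2, the atypical chemerin receptor, had the smallest range over the controls among the 8 receptors. Its probe (chromosome 9, 110957839 to 110957898, minus strand), like that of Ccr1, has a stop codon in each forward frame. It stood at 1.30, 1.04 and 1.19 on the controls and at 1.45, 1.20 and 1.51 with IFN-beta. The groups overlapped, and the 3 controls lay within 0.26 of each other. The difference was 0.21 ± 0.17 (interval -0.19 to 0.60; limma adjusted p = 0.417), with 0.19 against control 3 alone (adjusted p = 0.633) and 0.21 against controls 1 and 2 (adjusted p = 0.289). The interval leaves room for a rise of up to 0.60 or a fall of up to 0.19 on the log2 scale.

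**Figure D3:**
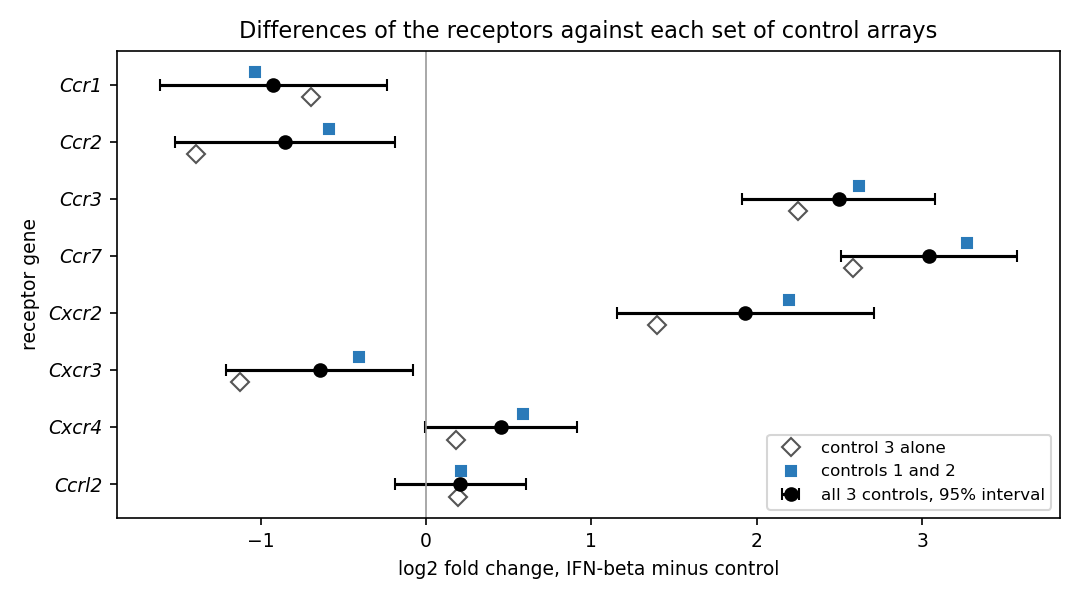
Log2 fold change of each receptor, IFN-beta minus control: black points use all 3 controls, with the 95% interval of the fit (not adjusted for the number of genes), blue squares controls 1 and 2, and open diamonds control 3 alone. Ccr7, Ccr3 and Cxcr2 lie right of 0 against every set of controls, from 1.40 to 3.27.

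Against control 3 alone, 4 of the 8 receptors were called, Ccr7 and Ccr3 higher and Ccr2 and Cxcr3 lower, where 9.53% of all genes were called. Against controls 1 and 2 it was 5 of 8, Ccr7, Ccr3, Cxcr2 and Cxcr4 higher and Ccr1 lower, where 48.2% of all genes were called. Ccr7 and Ccr3 were thus called against each set of controls. The comparisons share the IFN-beta arrays and are not independent. The signs of Ccrl2 and Cxcr4 against control 3 turned with spike-in scaling (-0.11 and -0.12).

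Several of the receptors lie in 1 stretch of chromosome 9, and neighbours there had unlike values. In the order of the RefSeq table (used for order only), Ccr1 is followed by Ccr1l1, Ccr3 and Ccr2. Along this row the log2 fold changes were -0.92 for Ccr1, 2.49 for Ccr3 and -0.85 for Ccr2. Ccr1l1 was above background on no array. Elsewhere on the chromosome lie Ccrl2 at 0.21, Cx3cr1, the fractalkine receptor of non-classical monocytes, at -1.44 ± 0.24 (limma adjusted p = 0.0067), and Ccr9, a gut homing receptor that plasmacytoid dendritic cells also carry, at 1.33 ± 0.36 (adjusted p = 0.0387). Of 17 other chemokine receptors considered, 5 were tested; Ccr9 rose, Cx3cr1 fell, and Ccr6, Cxcr6 and the chemerin receptor gene Cmklr1 were at -0.49, 0.26 and -0.20 without a call. The other 12 were too dim to test, and 6 of them, among them the Cxcl12 scavenger Ackr3, lay above background on controls 1 and 2 only. Against control 3 alone Ccr9 was at 0.78 (adjusted p = 0.35), while Cx3cr1 (-1.97) kept its call (adjusted p = 0.00377).

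**Figure D4:**
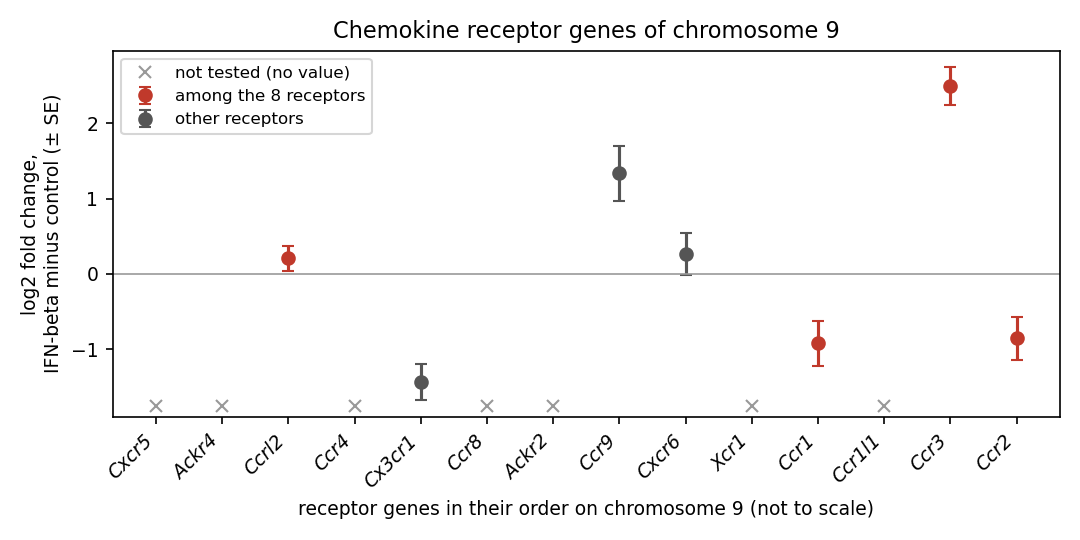
Log2 fold change (IFN-beta minus control, ± SE) of the chemokine receptor genes of chromosome 9 in their order along it, not to scale; red points are among the 8 receptors, grey points are other receptors and crosses mark genes too dim to test, which have no value. Ccr3 at 2.49 stands between Ccr1 at -0.92 and Ccr2 at -0.85.

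The known ligands of the 8 receptors changed in both directions. Of 24 ligand genes on the array 16 were tested; 8 rose and 2 fell, with a median log2 fold change of 0.93, or 0.85 against control 3. Of the ligands of Ccr2, Ccl12 rose by 6.20 ± 0.34, Ccl7 by 4.49 ± 0.28 and Ccl2 by 2.21 ± 0.24 (limma adjusted p from 7.78e-05 to 9.25e-04), beside a Ccr2 mean that was 0.85 lower without a call over all controls. For Ccr3, the eotaxin Ccl24 rose by 2.33 ± 0.24, and Ccl11 lay above background on controls 1 and 2 only. Among further CC ligands, Ccl4 (1.59 ± 0.22), Ccl6 (1.18 ± 0.17) and Ccl5 (0.65 ± 0.17) rose, Ccl5 not against control 3 (adjusted p = 0.217), and Ccl3 and Ccl9 were at 0.69 and 0.41 without a call. Ccl8 stood at 2.01 on control 2 and nearly the same on control 1, at -6.29 on control 3 and at 0.43, 0.48 and 0.96 with IFN-beta, so its sign turned with the controls used: 1.38 over all of them (adjusted p = 0.656), 6.92 against control 3 (adjusted p = 3.39e-04) and -1.38 against controls 1 and 2 (adjusted p = 0.00261).

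Among the CXC ligands, Cxcl10 rose by 1.41 ± 0.25 (0.96 against control 3, without a call), and Cxcl11 was at 0.10 without a call. Cxcl9 lay above background on controls 1 and 2 only and was not tested. Only Cxcl10 thus rose among the tested ligands of Cxcr3. For Cxcr2, Cxcl1 stood at 1.28, 2.08 and -3.00 on controls 1, 2 and 3. It was well above background on all controls and on no IFN-beta array and fell at least 19.5-fold. Against control 3 that bound was 2.24-fold. The other tested Cxcr2 ligands Cxcl2 and Ppbp were at -0.69 and 0.53 without a call. Cxcl5 and Cxcl3 were not tested. Cxcl5 stood at -2.13 and -1.73 on controls 1 and 2 and was not above background on control 3 and IFN-beta 3. Cxcl3 lay above background on no array. Rarres2, which encodes chemerin, the ligand of Ccrl2, fell at least 37.9-fold, but its levels were 3.47, 3.87 and -4.11 on controls 1, 2 and 3, and against control 3 the bound was 1.04-fold and there was no call (adjusted p = 0.187). Cxcl12, the ligand of Cxcr4, was not tested: it stood at 2.08 and 2.26 on controls 1 and 2, was not above background on control 3, and lay between -4.56 and -3.80 with IFN-beta, above background on 2 of the 3. Ccl19 and Ccl21a, the ligands of Ccr7, were above background on controls 1 and 2 only. The ligand genes Ccl8, Ccl11, Ccl19, Ccl21a, Cxcl1, Cxcl5, Cxcl9, Cxcl12 and Rarres2 thus were, among the controls, brightest on the same 2 arrays as the fibroblast markers. The part of these markers' cells in the ligand values was not tested.

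**Figure D5:**
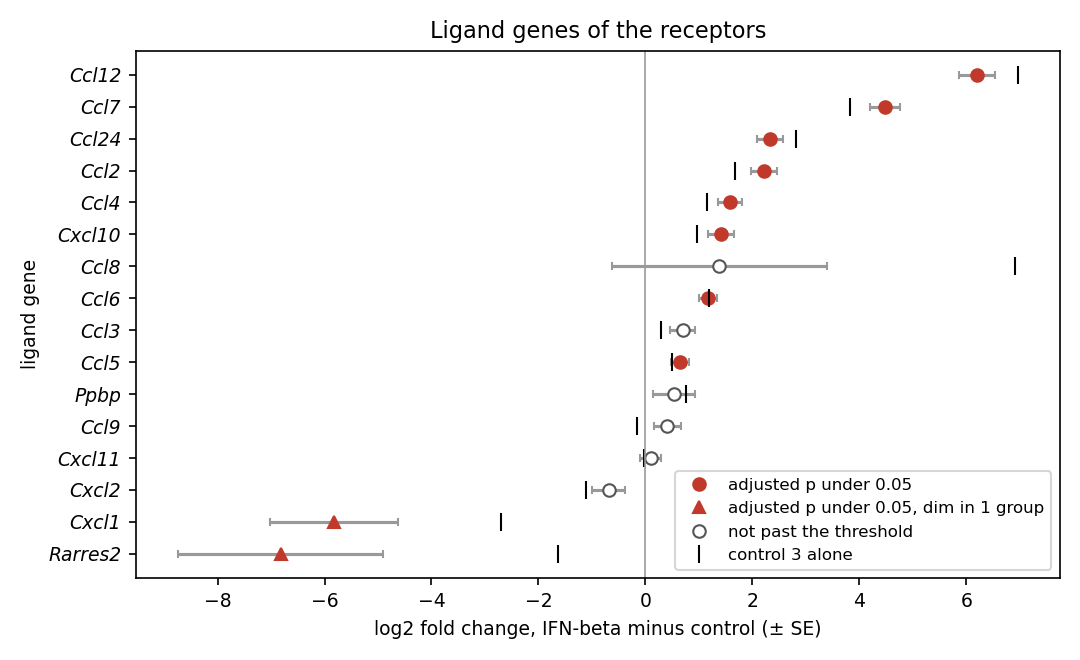
Log2 fold change (IFN-beta minus control, ± SE) of the 16 tested ligand genes; filled circles passed the threshold, triangles passed it but lay above background in 1 group only, open circles did not, and vertical ticks give the value against control 3 alone. Ccl12, Ccl7, Ccl24 and Ccl2 are the 4 highest called ligands, and the ticks of Cxcl1, Rarres2 and Ccl8 lie far from their points.

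Genes that act below the receptors were called about as often as genes in general, 22.6% against 19.8%. Of 31 genes for G protein subunits, effectors, receptor kinases, arrestins and RGS proteins, 3 rose and 4 fell, with a median of 0.18 (-0.21 against control 3). Rgs1 and Rgs16, which switch off G proteins, rose by 1.64 ± 0.23 and 1.27 ± 0.27, and Plcb2, a phospholipase activated by chemokine receptors, by 0.96 ± 0.24. Plcb3, its relative, fell (-1.05 ± 0.16), as did the receptor kinases Grk3 (-0.94 ± 0.18) and Grk5 (-1.10 ± 0.25); Rgs10 (-0.93 ± 0.23) was the fourth and is named here after its value was seen. With control 3 as the sole control, Plcb2 (adjusted p = 0.247) and Grk5 (adjusted p = 0.149) were not called. The inhibitory subunit Gnai2 and the arrestin Arrb2 were at -0.08 and 0.54 without a call.

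The patterns over the 6 arrays can be set side by side as a description. Among the 8 receptors Ccr3 was closest to Ccr7 (Pearson r = 0.986 over 6 arrays) and Cxcr2 to Ccr3 (r = 0.958), while Ccr2 was closest to Cxcr3 (r = 0.805) and Ccr1 to Ccr2 (r = 0.742). Over all genes with a current symbol, the closest to Ccr7 were Ms4a3 and Osm, to Ccr3 Gbp11 and Sytl3, to Cxcr2 Drd4 and Fezf1, to Ccr2 Cenpi and Kynu, to Cxcr3 Calhm2 and Plxnb2, to Ccr1 Sdsl and Astn1, to Cxcr4 Slc18a1 and Esf1, and to Ccrl2 Rtp2 and Brox. These r were at least 0.974, and since the arrays form 2 groups of 3 they largely restate the difference between the groups.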

How the data were processed

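Cy3 was the dye for each sample's RNA, per the labels, and every sample, 3 control and 3 IFN-beta, had 1 Agilent array. Per the file headers, the arrays were read with Agilent Feature Extraction, version 12.0.3.1. The values in the deposited scanner files are intensities, the processed signal used here among them, not normalized between arrays. The authors' deposited series values are on a log2 scale, with processing not stated, and served only as an alternative. Their columns correlated with the processed signal at r from 0.996 to 0.999.

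Outlier spots were left out, spots of a probe averaged, and log2 signals centred on the 75th percentile of the array. A probe was tested if all arrays of 1 group or both had it well above background (29795), with the brightest probe per gene (19501 genes), in limma 3.58.1 (R 4.3.3, and data.table, version 1.17.8; lmFit, eBayes), Benjamini-Hochberg adjustment over all genes and a threshold of 0.05. The script was tested on simulated data. Control 3 alone was compared in a fit of 4 arrays, in which the lone control is assumed to vary like the IFN-beta arrays. Symbols came from RefSeq (GRCm38.p6) and the files, and probe positions from the files (mm9), which do not give exons; probes were placed on no genome here. Marker lists, gene lists and the receptors were chosen with earlier results of these data known. By the rule for names, all 8 receptors, called ligands and other receptors, and up to 3 called genes per direction of other lists are named, with ligands that pair with a receptor. Further marker genes, such as those without a call, were named after their values were seen. One further receptor gene was taken off the list of other receptors and is not reported here. Marker sums without 1 gene were added after seeing the data. Alternatives were other normalizations, filters, probe rules, variance models, blocks and left-out arrays. The number of arrays limits the precision.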

Additional observations from a re-analysis of the deposited data

How the results depend on the processing

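Ccr7 and Ccr3 were called higher under each of 21 alternatives, with log2 fold changes from 2.81 to 3.27 and from 1.65 to 2.90. Cxcr2 was called in 19 of 21 (1.68 to 2.20), and not with slide as a block or within slide 1. Ccrl2 was called in none (0.05 to 0.30), Cxcr4 in 2, Cxcr3 in 4, Ccr2 in 5 and Ccr1 in 4 of 20, and the sign of Ccr1 turned once (0.11 with normexp and percentile scaling). The count of receptors called was 3, and 5 with either form of normexp and with the percentile taken over probes above background on all arrays; Ccr2 and Cxcr3 were the further ones. It was 7 with array weights, whose estimate stopped before it converged. Leaving out 1 array at a time gave 3 to 5 receptors and 1828 to 9397 genes, against 3866 genes over all arrays; 9397 was without control 3. Other gene counts were 1693 with no filter on dim probes, 12745 with array weights, 1039 with slide as a block and 369 within slide 1. Against control 3 alone the count of receptors was 4, and 2 with quantile normalization and with no filter. For these changes the cause was not tested.

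The share of higher genes among those called was 59.5%, 69.9% after normexp with percentile scaling and 39.6% with spike-in scaling, and the median of all genes was 0.10, 0.18 and -0.01. Same-numbered arrays deviated together only weakly (r = 0.07, 0.02 and 0.07 for numbers 1, 2 and 3). Arrays of unlike number gave r from -0.09 to 0.01. These r do not settle whether arrays of 1 number share an origin, which the labels do not give. With the replicate number as a block 4 receptors were called, Ccr1 (-0.92, adjusted p = 0.041) the further one, and 3260 genes. The use of the second probe of Ccr7 and Cxcr4 was chosen after seeing the data and gave 3 receptors called. Ccr1 was not well above background on IFN-beta 3, which limits what its value can show.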
